A study of Mus musculus with 26 samples.

Results

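The collagen chain genes are the genes whose products assemble into the collagens, and they were taken as every gene whose symbol has the form Col, a type number, the letter a and a chain number, with the highest-mean probe set kept for each gene. There were 42 such genes of 19505 genes with a symbol on the arrays, of which 11 encode fibrillar chains, 6 encode basement membrane chains and 25 encode other chains. The other chains comprise 6 beaded-filament chains of type VI, 8 fibril-associated chains, 2 endostatin-type multiplexins, 4 transmembrane chains, 3 short-chain network chains and 2 further single chains. Col7a1, Col12a1 and Col21a1 had no named probe set and were not analysed here.

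The arrays measured RNA of 26 subcutaneous tumors grown in male C57BL/6 mice from Panc02, a single murine pancreatic ductal adenocarcinoma cell line, so every tumor shared the same implanted line and any collagen RNA of host cells entered the same sample. The groups were 7 tumors of mice given anti-PD1 + HMB, 7 of mice given HMB, 6 of mice given anti-PD1 and 6 of control mice. All mice were fed AIN-93G diet, to which HMB (β-hydroxy-β-methylbutyrate, a metabolite of leucine) was added in the HMB and anti-PD1 + HMB groups, starting a week before injection. The anti-PD1 and anti-PD1 + HMB groups received 200 µg of a PD1 antibody, which blocks a brake on T cells, every 3 days once tumors could be felt, and the study's methods name an isotype control antibody for mice without it. Mice were 6 to 8 weeks old when obtained. Group membership follows the sample titles, although the series' own design text states different numbers per group. The comparisons ask how HMB, anti-PD1 and their combination alter tumor gene expression.

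Collagens are triple helices of alpha chains, wound from 1 kind of chain or from several. Fibrillar collagens such as types I, III and V form the load-bearing fibers of the stroma and are made mainly by fibroblasts and related mesenchymal cells, and type I is the main fibrillar collagen of the dense stroma for which pancreatic cancer is known. Type IV chains form the network of basement membranes around vessels and epithelia, type VI forms beaded filaments at the cell surface, and types XV and XVIII release anti-angiogenic fragments from their C-terminal ends.

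For Col1a2, Col3a1 and Col6a3, which are among the chains whose levels moved closely with Col1a1, and for the gene pair that shares a start region, the DNA at the transcription start is shown from RefSeq on mouse build GRCm38.p6. Each of the next 3 windows is the 250 bases just before the start of an annotated transcript, read on the gene's own strand. The TATA box letters TATAAA, the CAAT box letters CCAAT and the GC box letters GGGCGG are in capitals. Col1a2 lies at chr6:4505368-4505617 on the plus strand, Col3a1 at chr1:45311288-45311537 on the plus strand and Col6a3 at chr1:90843972-90844221 on the minus strand. The Col6a3 gene as a whole is annotated to position 90844001, so part of its window lies inside the annotated gene.
Col1a2: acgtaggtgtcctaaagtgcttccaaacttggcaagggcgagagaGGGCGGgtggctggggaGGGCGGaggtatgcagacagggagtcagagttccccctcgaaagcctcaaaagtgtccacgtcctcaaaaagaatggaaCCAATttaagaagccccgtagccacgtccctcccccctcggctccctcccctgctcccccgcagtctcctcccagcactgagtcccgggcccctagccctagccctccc
Col3a1: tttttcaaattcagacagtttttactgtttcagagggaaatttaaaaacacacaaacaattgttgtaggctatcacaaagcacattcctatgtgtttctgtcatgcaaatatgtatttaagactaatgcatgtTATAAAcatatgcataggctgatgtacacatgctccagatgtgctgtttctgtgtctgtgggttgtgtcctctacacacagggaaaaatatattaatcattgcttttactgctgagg
Col6a3: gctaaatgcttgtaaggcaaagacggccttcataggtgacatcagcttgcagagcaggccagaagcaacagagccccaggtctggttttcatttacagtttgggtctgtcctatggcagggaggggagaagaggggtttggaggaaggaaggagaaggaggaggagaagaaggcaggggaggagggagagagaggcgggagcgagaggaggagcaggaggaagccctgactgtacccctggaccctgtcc

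The Col1a2 window held a CCAAT 109 bases before the start and a GGGCGG at 205 and at 188 bases, the Col3a1 window held a TATAAA at 117 bases, and the Col6a3 window held none of the 3 motifs. TATAAA was searched on the gene's strand only, and CCAAT and GGGCGG were searched on both strands. Windows were found for 34 of the 42 chains, not including Col1a1 and Col5a2, and they numbered 37, because some genes have several starts. TATAAA stood in 13.5% of the collagen windows and in 7.6% of all 32851 windows, CCAAT in 32.4% and 33.8%, and GGGCGG in 56.8% and 32.7%. These are matches of letters and no test was made of them.

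Col4a1 and Col4a2 are transcribed in opposite directions from 1 locus on chromosome 8. The annotated transcripts used here start at position 11312826 on the minus strand for Col4a1 and at 11312805 on the plus strand for Col4a2. The Col4a1 gene as a whole is annotated to position 11312889, so the annotated genes overlap beyond the bases shown. The next line gives chr8:11312801-11312830 on the plus strand, with the 22 bases that belong to both of these transcripts in capitals.
Col4a1 and Col4a2: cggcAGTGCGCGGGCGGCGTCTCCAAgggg

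The authors deposited processed log values, 1 for each probe set in each tumor, and differences below are given as log2 on the assumption that the base is 2, which the sources used here do not state. A log2 difference of 1 then stands for a doubling. The array medians lay between 6.97 and 7.11. The 95th percentile of the negative-control probe sets lay between 10.9 and 11.3, and 7 of the 42 chains (Col1a1, Col1a2, Col3a1, Col6a1, Col6a2, Col6a3 and Col18a1) had a mean above their average of 11.07. The other 35 chains had means below it, and values below it could not be told from background by this measure. The tests were made with limma, fitting 19505 genes over the 26 tumors at once, with Benjamini-Hochberg adjustment over all genes. In no comparison did any gene pass an adjusted p of 0.05, so no chain is said to have risen or fallen. The smallest adjusted p of a chain was 0.33, for Col4a1 in anti-PD1 + HMB against HMB. Titles number the tumors of a group. The p-values set a difference of group means against the spread between tumors, estimated per gene over all groups together.

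The chains of types I and III, which build the thick fibers of stroma, varied widely between tumors of the same treatment. Col1a1, the chain present in duplicate in the type I trimer, ranged over 8.56 to 16.52 (median 13.93) in anti-PD1 + HMB, 12.51 to 17.25 (median 15.66) in HMB, 13.79 to 16.12 (median 14.32) in anti-PD1 and 7.47 to 15.33 (median 14.33) in control tumors. The means were 13.90 ± 2.79 in anti-PD1 + HMB, 15.41 ± 1.46 in HMB, 14.79 ± 1.04 in anti-PD1 and 13.33 ± 2.94 in control tumors (SD, n = 7, 7, 6 and 6). In whole tumors, fewer cells of a type and less RNA per cell cannot be told apart. All groups overlapped, and the wide spread in anti-PD1 + HMB and in control came from anti-PD1 + HMB tumor 3 at 8.56 and control tumor 4 at 7.47.

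Col1a2, the other chain of type I, gave the same picture, with 8.24 to 16.47 (median 13.98) in anti-PD1 + HMB, 11.81 to 16.73 (median 15.57) in HMB, 13.36 to 16.49 (median 14.06) in anti-PD1 and 6.53 to 15.49 (median 13.90) in control tumors. Col3a1, the single chain of type III, which mixes with type I in fibers, lay at 10.38 to 16.82 (median 14.64) in anti-PD1 + HMB, 13.53 to 17.42 (median 16.05) in HMB, 13.42 to 17.14 (median 14.44) in anti-PD1 and 9.48 to 15.98 (median 14.68) in control tumors. In all 3 of these genes the lowest tumor of the combination was tumor 3, the lowest with HMB was tumor 2 and the lowest control was tumor 4, and the group ranges overlapped. The lowest anti-PD1 tumor was tumor 5 for Col1a1 and Col1a2 and tumor 2 for Col3a1.

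Type V chains sit inside type I fibers and govern fiber width. Col5a1 had 4.31 to 9.89 (median 6.86) in anti-PD1 + HMB, 6.08 to 10.88 (median 8.61) in HMB, 6.30 to 9.58 (median 7.34) in anti-PD1 and 5.40 to 8.32 (median 6.35) in control tumors. Col5a2 had 4.16 to 11.07 (median 8.37) in anti-PD1 + HMB, 6.73 to 12.11 (median 10.02) in HMB, 7.95 to 11.26 (median 8.47) in anti-PD1 and 3.97 to 9.52 (median 8.06) in control tumors. Here too anti-PD1 + HMB tumor 3 and control tumor 4 were the lowest of their groups. Of the remaining fibrillar chains, Col24a1 had means of 4.60, 5.47, 4.65 and 4.59 in anti-PD1 + HMB, HMB, anti-PD1 and control tumors, and Col11a1 had means of 4.55, 5.29, 5.12 and 4.38, all in the range of background. Col2a1, the fibrillar chain of cartilage, had means between 4.03 and 4.44.

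Among the type VI chains, Col6a1 had 11.69 to 15.01 (median 12.95) in anti-PD1 + HMB, 13.31 to 15.13 (median 13.76) in HMB, 12.39 to 14.33 (median 12.78) in anti-PD1 and 12.58 to 13.92 (median 13.24) in control tumors. Col6a2 had 9.83 to 13.65 (median 11.27) in anti-PD1 + HMB, 11.77 to 14.64 (median 12.65) in HMB, 10.85 to 13.35 (median 11.28) in anti-PD1 and 10.58 to 12.52 (median 11.25) in control tumors. Col6a3, which joins those chains in the type VI trimer and carries the endotrophin fragment at its end, had 6.81 to 13.999 (median 11.69) in anti-PD1 + HMB, 8.74 to 15.03 (median 12.73) in HMB, 10.36 to 14.21 (median 11.26) in anti-PD1 and 6.64 to 12.21 (median 10.81) in control tumors. Col6a3 shared its low tumors with type I in 3 groups (anti-PD1 + HMB tumor 3, HMB tumor 2 and control tumor 4), whereas the lowest Col6a1 values were in anti-PD1 + HMB tumor 7, HMB tumor 6 and control tumor 1. In the anti-PD1 group the lowest was tumor 2 for Col6a3 and Col6a1, and tumor 5 for the type I chains.

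The basement membrane chains were far less variable. Col4a1, present in duplicate in the common type IV trimer, had 8.99 to 10.70 (median 9.48) in anti-PD1 + HMB, 9.56 to 11.13 (median 10.45) in HMB, 9.50 to 10.91 (median 9.78) in anti-PD1 and 9.02 to 10.26 (median 9.74) in control tumors. With HMB, 6 of 7 tumors lay above every control tumor, tumor 7 being the exception. HMB tumors 1 (10.27) and 3 (10.31) were only just above the highest control tumor (10.26). For Col4a1, 1 HMB tumor and 0 control tumors lay above the 95th percentile of the negative-control probe sets. Col4a2, its partner chain, had 7.995 to 10.49 (median 8.98) in anti-PD1 + HMB, 8.32 to 10.26 (median 9.09) in HMB, 8.49 to 9.44 (median 9.11) in anti-PD1 and 7.80 to 9.65 (median 8.98) in control tumors, so that all groups overlapped. Neither chain had its group's lowest value in anti-PD1 + HMB tumor 3 (9.48 and 8.46) or control tumor 4 (10.24 and 9.65), where the type I chains did, and control tumor 4 had the highest Col4a2 value of its group.

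Of the multiplexins, which tie basement membranes to the tissue around them, Col18a1, the source of endostatin, had 12.41 to 14.73 (median 13.82) in anti-PD1 + HMB, 14.20 to 15.22 (median 14.36) in HMB, 13.63 to 14.59 (median 14.12) in anti-PD1 and 13.75 to 15.13 (median 14.44) in control tumors. Col15a1 had 5.21 to 8.47 (median 8.04) in anti-PD1 + HMB, 6.08 to 8.98 (median 7.33) in HMB, 5.69 to 9.84 (median 6.35) in anti-PD1 and 4.93 to 7.54 (median 6.66) in control tumors. The plot of 8 chains by tumor shows the contrast between the wide fibrillar and the narrow basement membrane values.

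**Figure D1:**
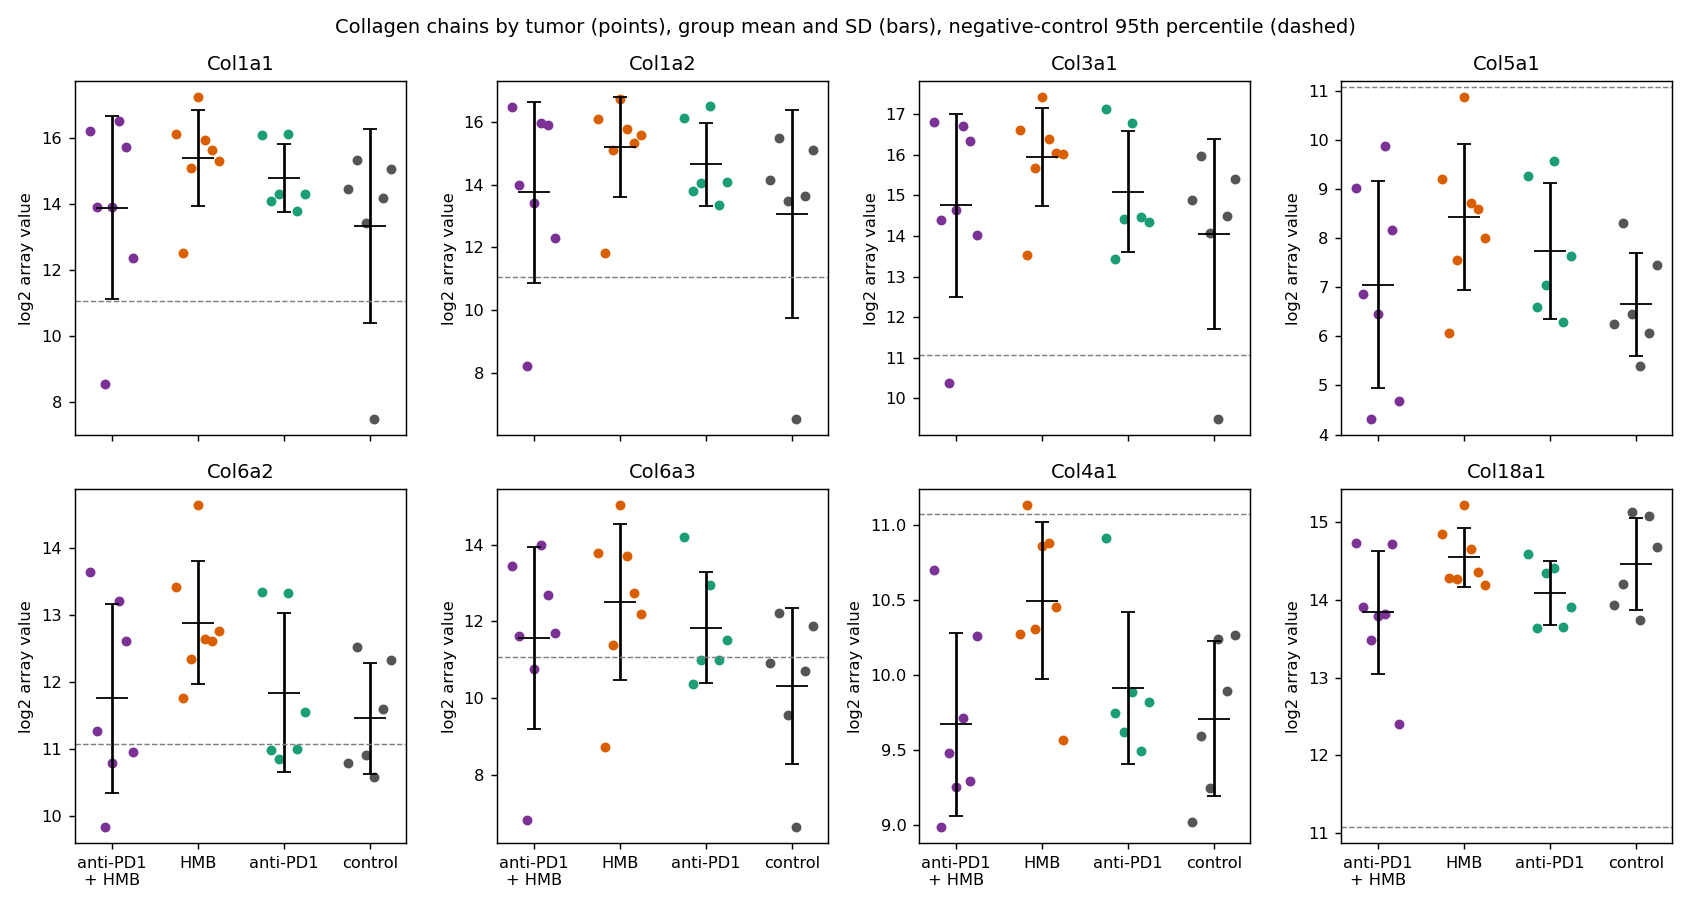
Log2 array value (vertical axis) of 8 collagen chains in each of the 26 tumors (points) by treatment, with the group mean and SD (bars) and the average 95th percentile of the negative-control probe sets, 11.07 (dashed line). For Col1a1, Col1a2 and Col3a1 a single anti-PD1 + HMB tumor (8.56 for Col1a1) and a single control tumor (7.47 for Col1a1) lie under the dashed line, while Col4a1 spans 8.99 to 11.13 over all tumors.

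The spread within groups put numbers on this contrast. The SD within groups was 2.41 for Col1a2, 2.22 for Col1a1, 2.02 for Col6a3, 1.94 for Col5a2, 1.88 for Col3a1 and 1.58 for Col5a1, against 0.54 for Col4a1, 0.65 for Col4a2 and 0.57 for Col18a1. The median chain had 0.54 and the median gene of the array 0.38. For Col1a2, 99.8% of all genes had a smaller SD. Control tumor 4 stood below the mean of the other control tumors by more than 3 log2 units in 4 of 11 fibrillar chains, in 0 of 6 basement membrane chains and in 1 of 25 other chains. Anti-PD1 + HMB tumor 3 did so in 5 of 11, 0 of 6 and 1 of 25 chains. Because these 2 tumors decide many values, differences are also given without them, a choice made after seeing the data.

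Chains that build the same trimer moved together in types I, V and VI. Across the 26 tumors, Col1a1 and Col1a2 had a Pearson's r of 0.99 and a Spearman's rho of 0.98 (permutation p = 1e-05 for both, the smallest that 100000 permutations can give), and r was 0.98 without the 2 tumors farthest from the median. Col1a1 and Col3a1 had r = 0.98 and rho = 0.95 (permutation p = 1e-05 for both), and 0.94 without those 2 tumors. For Col5a1 and Col5a2 r was 0.91 and rho 0.93, and for Col6a1 and Col6a2 r was 0.92 and rho 0.90, again with permutation p = 1e-05. All 4 pairs had an adjusted p of 3e-05 over the 12 pairs examined. Within the treatment groups, r of Col1a1 and Col1a2 was 0.99 in anti-PD1 + HMB, 0.98 in HMB, 0.996 in anti-PD1 and 0.997 in control tumors, so the relation held within each group.

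Col6a1 and Col6a3 were less close, with r = 0.65 and rho = 0.71 (permutation p = 0.00034 and 9e-05, adjusted 0.00068 and 0.00022). Col4a1 and Col4a2, the pair with the shared start region printed above, had r = 0.64 and rho = 0.61 (permutation p = 0.00033 and 0.0012, adjusted 0.00068 and 0.0023), with r = 0.70 without the 2 farthest tumors. The remaining pairs did not pass an adjusted p of 0.05. Col4a3 and Col4a4 had r = 0.22, Col4a5 and Col4a6 had r = −0.19, Col8a1 and Col8a2 had r = 0.13, Col9a1 and Col9a2 had r = 0.05 and Col11a1 and Col11a2 had r = 0.15. All of these chains had means below the negative-control percentile. So did Col4a1 (9.96), Col4a2 (9.07), Col5a1 (7.49) and Col5a2 (8.82), whose pairs passed. Whether low values hid a relation was not tested. Col1a1 and Col4a1, a fibrillar and a basement membrane chain, had r = 0.18 and rho = 0.37 (permutation p = 0.39 and 0.06, adjusted 0.52 and 0.1), and r = −0.01 after group means were taken out.

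Set against all 41 other chains, Col1a1 correlated positively with 17 and negatively with 0 at a Pearson adjusted permutation p of 0.05, and 16 of the 17 also passed by Spearman's rho. These were 8 of 10 fibrillar chains, 0 of 6 basement membrane chains and 9 of 25 other chains. The closest were Col1a2, Col3a1, Col5a2 (r = 0.96), Col6a3 (r = 0.93) and Col5a1 (r = 0.84), and these 5 were the only chains with r over 0.8. Col14a1, a fibril-associated chain, had r = 0.78, Col27a1 had r = 0.78 and Col11a1 had r = 0.74. Col18a1 had r = 0.52 (adjusted permutation p = 0.027). Without the 2 low tumors r lay at 0.98 for Col1a2, 0.95 for Col5a2, 0.89 for Col6a3 and 0.95 for Col5a1, and at 0.32 for Col5a3, against 0.59 with all tumors. The points share the tumor and its array, and no direction of influence can be read from them.

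**Figure D2:**
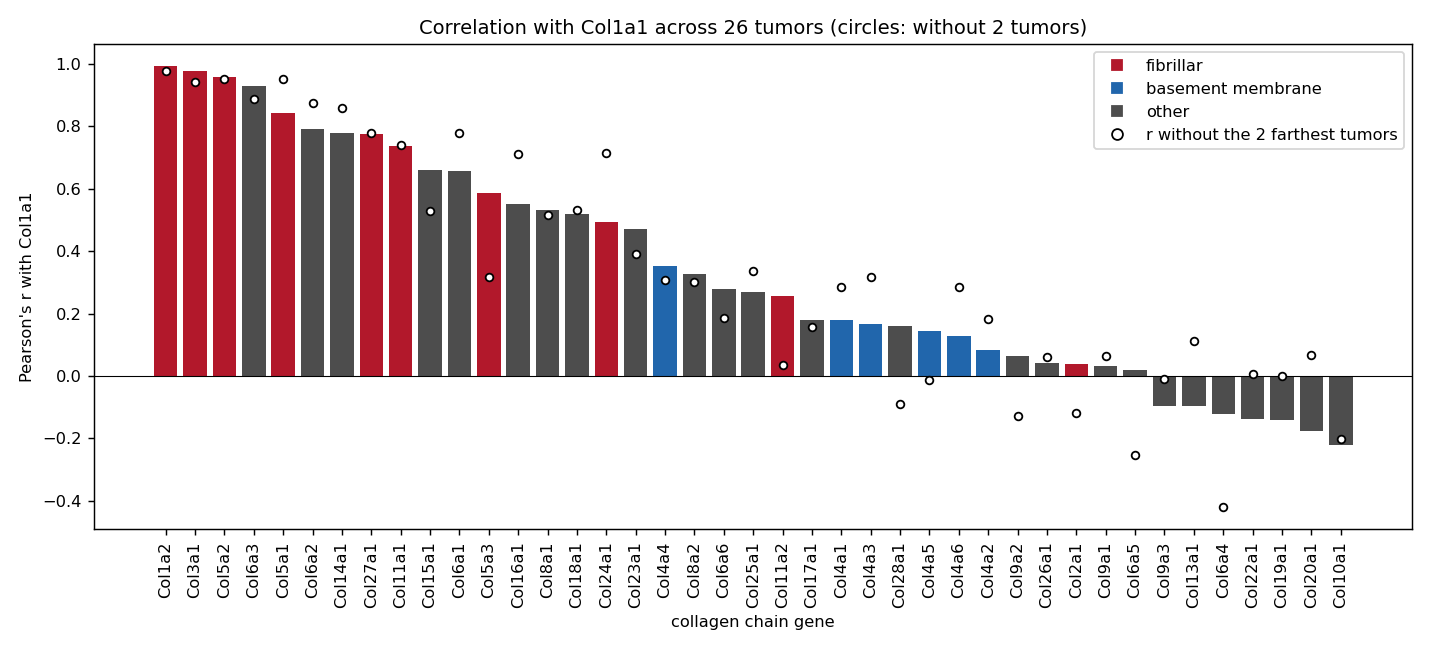
Pearson's r of each of 41 collagen chains with Col1a1 across 26 tumors (bars, colored by class) and r without the 2 tumors farthest from the Col1a1 median (circles). The tallest bars are Col1a2 (0.99), Col3a1 (0.98), Col5a2 (0.96) and Col6a3 (0.93), and the 6 basement membrane bars lie between 0.08 and 0.35.

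With HMB alone, against control, the fibrillar chains as a class had higher means, and the largest differences belonged to the chains that vary most between tumors. All 11 fibrillar chains had a log2 difference above 0 (median 0.91), as did 3 of 6 basement membrane chains (median 0.06) and 17 of 25 other chains (median 0.09), while 47.5% of all genes lay above 0 with a median of −0.01. No chain passed the adjusted threshold. At an unadjusted p of 0.05, 5 of 42 chains were higher, against 3.14% of all genes, and 2 were lower, against 3.79% of all genes. The chains that passed in the higher direction were Col4a1, Col6a2, Col24a1, Col5a1 and Col6a3. Those in the lower direction were Col22a1 and Col19a1, a pair of fibril-associated chains. Of all these, only Col6a2 and Col6a3 had means above the negative-control percentile. Below it lay Col4a1 (9.96), Col5a1 (7.49) and Col24a1 (4.84), and also Col22a1 (5.08) and Col19a1 (2.82).

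Col4a1 had the smallest p, with means of 10.49 ± 0.52 in HMB and 9.71 ± 0.51 in control tumors (SD, n = 7 and 6), a log2 difference of 0.78 (SE 0.29, adjusted p = 0.69). Col6a2 differed by 1.43 (SE 0.58), Col24a1 by 0.88 (SE 0.40), Col5a1 by 1.77 (SE 0.82) and Col6a3 by 2.19 (SE 1.05), with adjusted p-values of 0.69 to 0.71. The type I and III chains had differences of 2.09 (SE 1.15, adjusted p = 0.74) for Col1a1, 2.13 (SE 1.25, adjusted p = 0.75) for Col1a2 and 1.90 (SE 0.97, adjusted p = 0.72) for Col3a1. Col5a2 differed by 2.03 (SE 1.004, adjusted p = 0.71), Col6a1 by 0.76 (SE 0.45), Col4a2 by 0.43 (SE 0.34), Col15a1 by 0.92 (SE 0.65) and Col18a1 by 0.09 (SE 0.30). In the lower direction Col22a1 differed by −0.44 (SE 0.18, adjusted p = 0.69), Col19a1 by −0.39 (SE 0.18, adjusted p = 0.71) and Col10a1, a chain of growth-plate cartilage, by −0.38 (SE 0.25, adjusted p = 0.78).

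The fibrillar differences rested in large part on 1 control tumor. Without control tumor 4 and anti-PD1 + HMB tumor 3, the log2 difference of HMB against control was 0.91 for Col1a1, 0.82 for Col1a2, 0.99 for Col3a1, 1.27 for Col5a2, 1.45 for Col6a3 and 1.52 for Col5a1. Col10a1 was at −0.23 without control tumor 4, and Col4a2 at 0.21 without control tumor 1. Without both low tumors all 11 fibrillar chains still lay above 0, with a median of 0.82, and Col4a1 differed by 0.89 (SE 0.31, adjusted p = 0.79). The number of chains at an unadjusted p of 0.05, 7 in both directions together against 6.93% of all genes, became 3 without both tumors. With 1 tumor left out it was 14 without HMB tumor 2, 4 without HMB tumor 4, 5 or 6, 3 without HMB tumor 1, control tumor 3 or control tumor 5, and 2 without control tumor 4. The differences themselves were larger without HMB tumor 2, at 2.57 for Col1a1, 2.70 for Col1a2 and 2.31 for Col3a1. They were then 2.53 for Col5a2, 2.82 for Col6a3 and 2.17 for Col5a1. Col18a1 changed direction, to −0.06 without control tumor 4, −0.03 without HMB tumor 4 and −0.02 without control tumor 1.

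**Figure D3:**
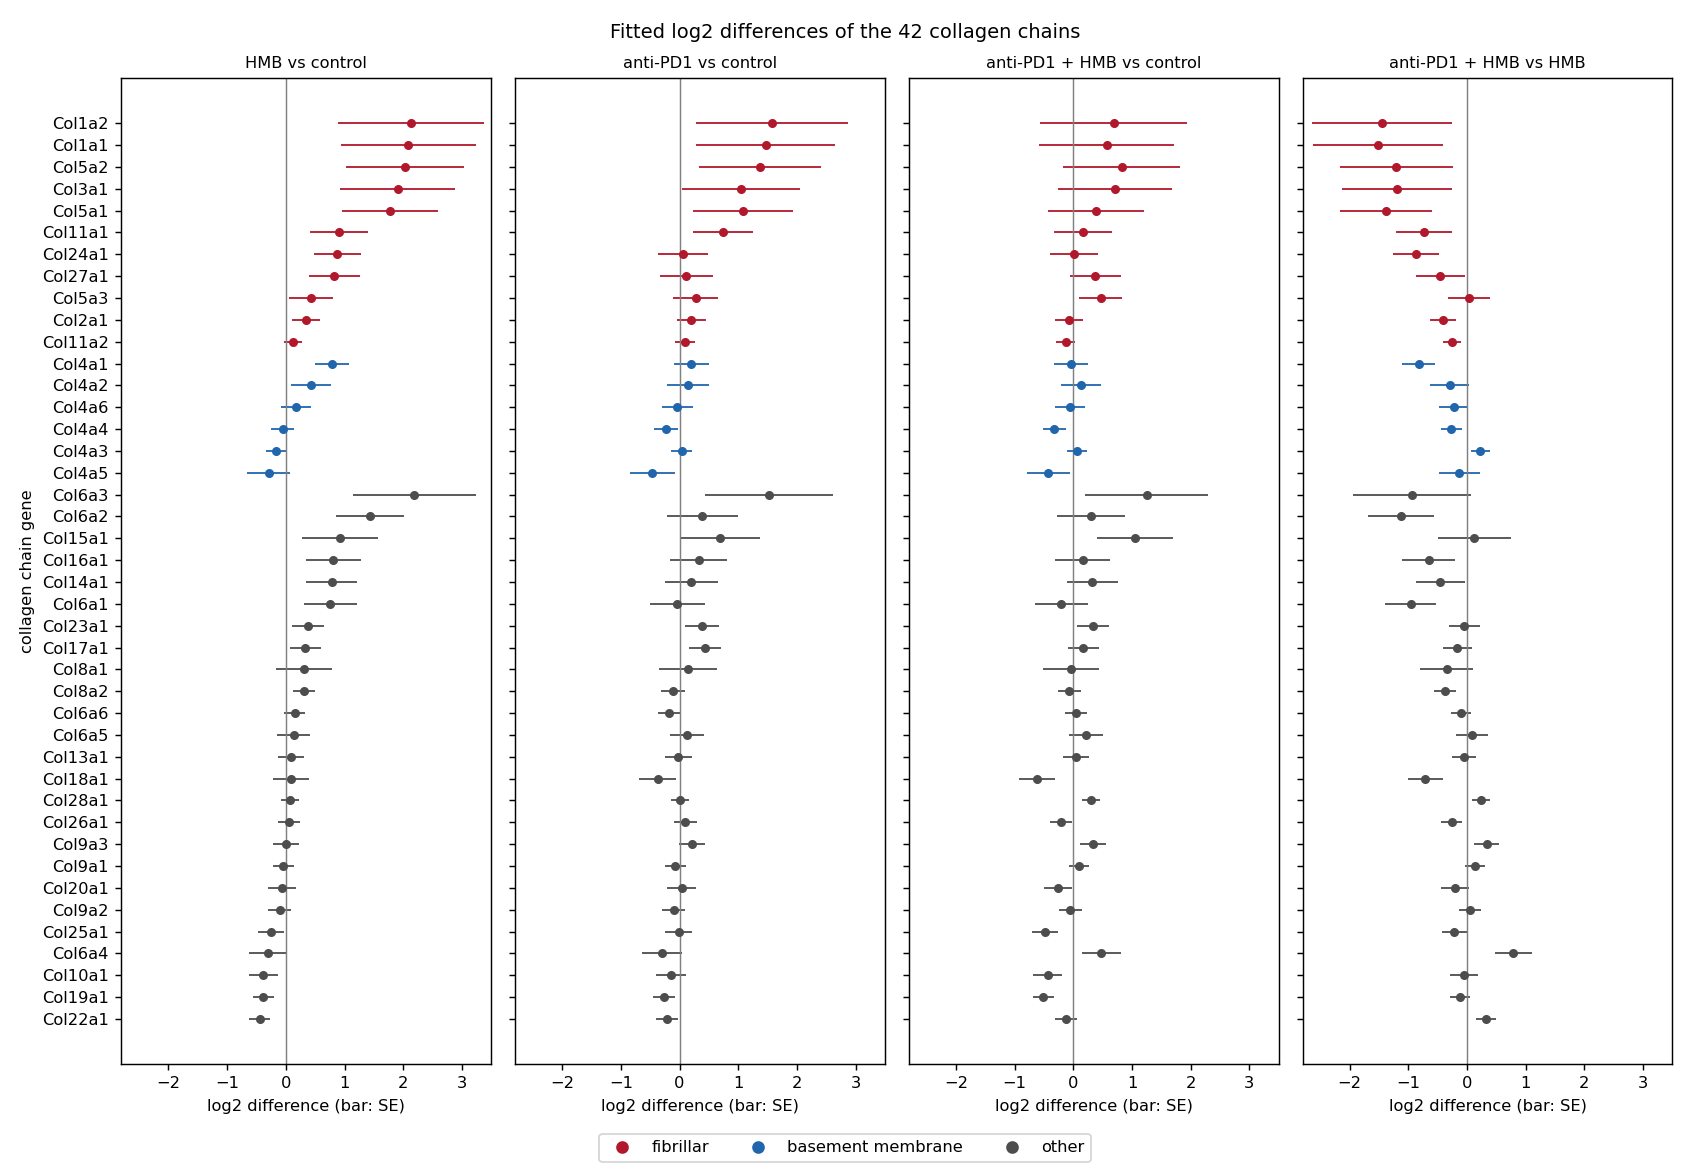
Fitted log2 difference (point) and its standard error (bar) of the 42 collagen chains in 4 comparisons, grouped by class and ordered by the difference of HMB against control. All 11 fibrillar chains lie right of 0 for HMB and for anti-PD1 against control, and 10 of 11 lie left of 0 for anti-PD1 + HMB against HMB, and the comparisons share groups.

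Anti-PD1 alone, against control, gave differences of the same direction in the fibrillar chains and smaller ones. All 11 had a log2 difference above 0 (median 0.74), against 3 of 6 basement membrane chains (median −0.002) and 13 of 25 other chains (median 0.01), and 49.2% of all genes. At an unadjusted p of 0.05, 0 chains were higher and 0 lower by limma, against 2.41% and 3.59% of all genes, or 6% in either direction, and the methods' t-test also gave 0. Without control tumor 6 the count was 1. Col1a1 differed by 1.47 (SE 1.19, adjusted p = 0.91), Col1a2 by 1.58 (SE 1.29), Col3a1 by 1.04 (SE 1.01), Col5a1 by 1.08 (SE 0.85), Col5a2 by 1.37 (SE 1.04) and Col6a3 by 1.52 (SE 1.09, adjusted p = 0.89). The smallest p in the higher direction belonged to Col17a1, the transmembrane chain of hemidesmosomes, at 0.43 (SE 0.27, adjusted p = 0.88), followed by Col11a1 at 0.74 (SE 0.52, adjusted p = 0.89). In the lower direction Col19a1 differed by −0.26 (SE 0.19), Col4a5 by −0.46 (SE 0.38) and Col18a1 by −0.37 (SE 0.32). Single tumors moved all 5 of these values. Col17a1 was at 0.14 without anti-PD1 tumor 6, which had 5.44 against 3.51 to 3.91 in the other anti-PD1 tumors, and Col11a1 was at 0.33 without anti-PD1 tumor 4. Col4a5 was at −0.18 without anti-PD1 tumor 6 and −0.73 without anti-PD1 tumor 3, and without control tumor 3 Col19a1 was at −0.17 and Col18a1 at −0.24.

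The fibrillar values also depended on control tumor 4. Without it and anti-PD1 + HMB tumor 3, the log2 difference of anti-PD1 against control was 0.30 for Col1a1, 0.27 for Col1a2, 0.13 for Col3a1, 0.62 for Col5a2 and 0.78 for Col6a3, and the fibrillar median was 0.13 with 9 of 11 chains above 0. Col5a1 was at 0.72 without anti-PD1 tumor 4.

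For the combination against control, the chains of types I and III differed by less than their errors, and most fibrillar means lay above control. Of 11 fibrillar chains 9 lay above 0 (median 0.39), with 2 of 6 basement membrane chains (median −0.05) and 14 of 25 other chains (median 0.05), against 46.9% of all genes. Col1a1 differed by 0.57 (SE 1.15), Col1a2 by 0.69 (SE 1.25), Col3a1 by 0.71 (SE 0.97) and Col6a3 by 1.25 (SE 1.05). At an unadjusted p of 0.05, 0 of 42 chains were higher, against 3.42% of all genes, and 2 were lower, against 4.71% of all genes. Col19a1 had means of 2.61 ± 0.22 in anti-PD1 + HMB and 3.12 ± 0.42 in control tumors (SD, n = 7 and 6), a log2 difference of −0.51 (SE 0.18, adjusted p = 0.54). Col25a1, a transmembrane chain first known from amyloid plaques, differed by −0.48 (SE 0.22, adjusted p = 0.60), and both chains lay at the bottom of the array's range.

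Col18a1, the one of the chains with the smallest p here that was well above background, had a mean of 13.84 ± 0.79 in anti-PD1 + HMB and 14.46 ± 0.59 in control tumors (SD), a log2 difference of −0.62 (SE 0.30, adjusted p = 0.62). In the other direction Col28a1 differed by 0.30 (SE 0.16, adjusted p = 0.63), Col15a1 by 1.05 (SE 0.65, adjusted p = 0.68) and Col9a3 by 0.34 (SE 0.22, adjusted p = 0.69). Left out singly, tumors changed the count of 2 chains in either direction, against 8.13% of all genes, to 5 without anti-PD1 + HMB tumor 1, 4 without anti-PD1 + HMB tumor 6, and 1 without anti-PD1 + HMB tumor 4, anti-PD1 + HMB tumor 5 or control tumor 6. Without control tumor 4 the direction turned for Col1a1, to −0.60, for Col1a2, to −0.62, and for Col3a1, to −0.21, and Col6a3 was at 0.52. Without anti-PD1 + HMB tumor 3 they were at 1.46, 1.61, 1.44 and 2.05. Col18a1 was at −0.38 without anti-PD1 + HMB tumor 7 and Col9a3 at 0.22 without control tumor 1.

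Adding anti-PD1 to HMB set the combination below HMB alone in most chains. Of 42 chains 32 had a log2 difference below 0 and 10 above, with 10 of 11 fibrillar chains below (median −0.87), 5 of 6 basement membrane chains below (median −0.25) and 17 of 25 other chains below (median −0.12), while 48.4% of all genes lay above 0. At an unadjusted p of 0.05, 4 chains were lower, against 4.1% of all genes, and 1 was higher, against 4.71% of all genes. The HMB tumors of this comparison are those of HMB against control, so the comparisons are not independent.

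Col4a1 again had the smallest p. Its mean was 9.67 ± 0.61 in anti-PD1 + HMB and 10.49 ± 0.52 in HMB tumors (SD, n = 7 each), a log2 difference of −0.82 (SE 0.28, adjusted p = 0.33), and it was −0.79 (SE 0.29, adjusted p = 0.47) without the 2 low tumors. Col18a1 differed by −0.71 (SE 0.29, adjusted p = 0.47), Col24a1 by −0.87 (SE 0.39, adjusted p = 0.53) and Col6a1 by −0.96 (SE 0.44, adjusted p = 0.53). Col6a2 differed by −1.13 (SE 0.56, adjusted p = 0.57), Col5a1 by −1.38 (SE 0.79), Col6a3 by −0.94 (SE 1.01) and Col4a2 by −0.29 (SE 0.33). The chains of types I and III had differences of −1.51 (SE 1.10) for Col1a1, −1.45 (SE 1.20) for Col1a2 and −1.19 (SE 0.94) for Col3a1, with errors nearly as large. Without the 2 low tumors these were −0.62, −0.53 and −0.46, and Col5a1 was at −0.92 and Col6a3 at −0.14. Col4a2 was at −0.12 without anti-PD1 + HMB tumor 2 and −0.54 without tumor 7, and Col18a1 at −0.47 without tumor 7.

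In the higher direction Col6a4, a type VI chain with low values here, had 3.23 to 6.31 (median 3.75) in anti-PD1 + HMB and 3.09 to 3.75 (median 3.32) in HMB tumors. Its log2 difference was 0.79 (SE 0.31, adjusted p = 0.45), and it was 0.43 without anti-PD1 + HMB tumor 7, which held the highest value. Col22a1 differed by 0.32 (SE 0.17) and Col9a3 by 0.34 (SE 0.21). The count of 5 chains in either direction, against 8.8% of all genes, was 9 without anti-PD1 + HMB tumor 5, 8 without anti-PD1 + HMB tumor 1 or HMB tumor 2, and 3 without anti-PD1 + HMB tumor 4, anti-PD1 + HMB tumor 7 or HMB tumor 1.

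Adding HMB to anti-PD1 gave small differences. Of 11 fibrillar chains 2 lay above 0 (median −0.34), of 6 basement membrane chains 2 (median −0.01) and of 25 other chains 12 (median −0.05), against 48% of all genes. Col1a1 differed by −0.90 (SE 1.15), Col1a2 by −0.89 (SE 1.25) and Col3a1 by −0.34 (SE 0.97). Without anti-PD1 + HMB tumor 3 these became −0.01, 0.03 and 0.39, and Col3a1 also turned to 0.07 without anti-PD1 tumor 1 and to 0.001 without anti-PD1 tumor 4. At an unadjusted p of 0.05, Col6a4 was the 1 chain higher (0.78, SE 0.33, and 0.43 without anti-PD1 + HMB tumor 7), against 1.85% of all genes, and Col25a1 the 1 chain lower (−0.47, SE 0.22), against 2.33% of all genes. The count of 2 in either direction, against 4.18% of all genes, was 4 without anti-PD1 + HMB tumor 1, 0 without anti-PD1 + HMB tumor 7, and 1 without anti-PD1 + HMB tumor 2, 3, 4 or 5, anti-PD1 tumor 1 or anti-PD1 tumor 2.

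The interaction, defined as the log2 difference of anti-PD1 + HMB against anti-PD1 minus that of HMB against control, tests whether HMB acted differently with and without anti-PD1. It was below 0 in all 11 fibrillar chains (median −1.48), in 4 of 6 basement membrane chains and in 16 of 25 other chains, while 50.7% of all genes lay above 0 with a median of 0.01. At an unadjusted p of 0.05, 3 chains were lower, against 2.96% of all genes, and 1 was higher, against 2.61% of all genes. The smallest p in the lower direction belonged to Col4a1 at −1.03 (SE 0.41, adjusted p = 0.88), Col5a1 at −2.46 (SE 1.16) and Col11a1 at −1.48 (SE 0.70), and in the higher direction to Col6a4 at 1.09 (SE 0.46), with adjusted p-values of 0.88 to 0.89. Col1a1 had −2.98 (SE 1.62), Col1a2 −3.03 (SE 1.76), Col3a1 −2.24 (SE 1.38), Col6a2 −1.52 (SE 0.82) and Col6a3 −2.46 (SE 1.48).

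Without HMB tumor 2 alone, the interaction was −3.47 for Col1a1 and −3.59 for Col1a2. Without control tumor 4 and anti-PD1 + HMB tumor 3 together, the interaction was −0.92 for Col1a1 and −0.80 for Col1a2, and the fibrillar median was −0.80, whereas Col4a1 stayed at −1.10. The count of 4 chains in either direction, against 5.57% of all genes, became 2 without both. Left out singly, it was 9 without anti-PD1 + HMB tumor 1, 8 without HMB tumor 2, 7 without anti-PD1 + HMB tumor 5, and 2 without anti-PD1 + HMB tumor 3, anti-PD1 + HMB tumor 7, HMB tumor 1, HMB tumor 6, control tumor 3 or control tumor 4.

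Genes that make, process and remove collagen were read beside the chains. Of 19 measured genes for collagen folding and modification in the endoplasmic reticulum, 17 were higher with HMB than in control (median log2 difference 0.31) and 5 of them passed an unadjusted p of 0.05, against 3.14% of all genes. P4ha2, a subunit of prolyl 4-hydroxylase, which stabilizes the triple helix, had means of 9.61 ± 0.60 in HMB and 8.37 ± 0.91 in control tumors, a log2 difference of 1.24 (SE 0.38, adjusted p = 0.69). P4ha3, another subunit of that enzyme, differed by 1.80 (SE 0.68, adjusted p = 0.69).

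In anti-PD1 + HMB against HMB, 17 of the same 19 genes were lower (median −0.27), 4 of them at an unadjusted p of 0.05, against 4.1% of all genes. Plod2, a lysyl hydroxylase that prepares crosslinks, differed by −0.70 (SE 0.21, adjusted p = 0.28), with means of 11.19 ± 0.33 in anti-PD1 + HMB and 11.89 ± 0.41 in HMB tumors, and P3h4, which works in a complex with a lysyl hydroxylase, by −0.79 (SE 0.27, adjusted p = 0.36). The HMB tumors are common to both comparisons.

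Of 14 genes for procollagen cleavage and fibril assembly, 11 were higher and 0 passed an unadjusted p of 0.05 for HMB against control, where 3.14% of all genes did. For the combination against HMB 12 were lower and 1 of the 14 passed, where 4.1% of all genes did. That was Pcolce, the enhancer of the C-propeptide protease, at −0.93 (SE 0.39, adjusted p = 0.48). Among 6 crosslinking genes, 3 were higher and 3 lower for HMB against control. Lox, the lysyl oxidase, differed by 1.81 (SE 0.87) and Tgm2, a transglutaminase, by −0.90 (SE 0.38). For the combination against HMB 5 of the 6 were lower, and Tgm2 differed by 1.10 (SE 0.36). Among 10 collagen receptors, 6 were lower for HMB against control and 7 for the combination against HMB. Lair1, an inhibitory receptor of leukocytes, differed by −0.89 (SE 0.28) and by 0.70 (SE 0.27) in the same order of comparisons. Of 10 genes of collagen breakdown, 8 were higher with HMB than in control, where 47.5% of all genes were. Fap, a fibroblast protease, differed by 1.25 (SE 0.50) and Ctsk, the collagen-degrading cathepsin K, by 1.92 (SE 0.91). For the combination against HMB 8 of the 10 were lower (median −0.48), with 0 at an unadjusted p of 0.05, where 4.1% of all genes were lower at that p. The genes named from these lists passed an unadjusted p of 0.05 and none passed an adjusted p of 0.05. At that unadjusted p 3.14% of all genes were higher and 3.79% lower for HMB against control. For the combination against HMB these shares were 4.71% and 4.1%. Fap is also among the fibroblast markers below.

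Markers of the cells that could supply collagen were read beside the chains. The mean of 20 fibroblast markers, none of them a collagen, ranged over 7.12 to 10.27 in anti-PD1 + HMB, 8.29 to 10.81 in HMB, 7.93 to 10.60 in anti-PD1 and 6.93 to 9.58 in control tumors. Its lowest tumors were anti-PD1 + HMB tumor 3, HMB tumor 2 and control tumor 4, as for the fibrillar mean. In the anti-PD1 group the lowest was tumor 2 for the markers and tumor 5 for the fibrillar mean. Across the 26 tumors the mean of the fibrillar chains followed it with r = 0.93 and rho = 0.88, and with r = 0.88 without anti-PD1 + HMB tumor 3 and control tumor 4. Within the groups r was 0.94 in anti-PD1 + HMB, 0.96 in HMB, 0.98 in anti-PD1 and 0.97 in control tumors. These correlations of means over lists are given as descriptions. Of the 20 markers 17 were higher with HMB than in control (median log2 difference 1.01), 4 of them at an unadjusted p of 0.05, against 3.14% of all genes. In the combination against HMB 16 were lower (median −0.44), 1 of them at an unadjusted p of 0.05, against 4.1% of all genes. The other comparisons ran less closely with the fibrillar chains. For anti-PD1 against control 15 of the 20 markers were higher (median 0.53), but at an unadjusted p of 0.05 0 were higher and 2 lower, against 2.41% and 3.59% of all genes. For the combination against anti-PD1 13 were higher (median 0.11), whereas 9 of 11 fibrillar chains were lower (median −0.34).

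The basement membrane pair was set against the same marker lists. The mean of Col4a1 and Col4a2 had r = 0.74 with the mean of 14 pericyte and smooth muscle markers, 0.64 with 13 adipocyte markers, 0.62 with 14 endothelial markers and 0.36 with the fibroblast markers. Within groups, r with the pericyte and smooth muscle markers was 0.91 in anti-PD1 + HMB, 0.90 in HMB, 0.59 in anti-PD1 and −0.38 in control tumors. With the adipocyte markers it was 0.91 in anti-PD1 + HMB, 0.58 in HMB, 0.83 in anti-PD1 and −0.85 in control tumors. Of these 3 lists the endothelial one alone gave a positive r in all 4 groups, at 0.83 in anti-PD1 + HMB, 0.69 in HMB, 0.62 in anti-PD1 and 0.79 in control tumors. The pericyte and smooth muscle mean ranged over 6.33 to 8.73 in anti-PD1 + HMB, 7.09 to 8.62 in HMB, 6.80 to 8.01 in anti-PD1 and 6.91 to 7.50 in control tumors. With HMB against control 10 of its 14 markers were higher (median 0.56), 3 at an unadjusted p of 0.05, against 3.14% of all genes. Of 14 endothelial markers 11 were lower (median −0.10), 0 at that p against 3.79% of all genes, while Col4a1 was higher. In the combination against HMB 12 pericyte and smooth muscle markers were lower (median −0.27), 1 at that p against 4.1% of all genes. There 9 endothelial markers were higher (median 0.09), 1 at that p against 4.71% of all genes, while Col4a1 was lower.

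Other tissues also differed between tumors. The mean of 18 skeletal muscle markers ranged over 4.21 to 12.32 in anti-PD1 + HMB, 4.57 to 13.02 in HMB, 4.37 to 7.35 in anti-PD1 and 4.36 to 4.78 in control tumors, and that of 13 adipocyte markers over 5.31 to 13.71, 6.01 to 12.03, 5.11 to 10.42 and 5.45 to 7.64 in the same order of groups. All 18 skeletal muscle markers (median log2 difference 2.20) and all 13 adipocyte markers (median 1.79) were higher with HMB than in control. These medians exceeded that of the fibroblast markers. At an unadjusted p of 0.05 stood 1 and 0 of the markers, against 3.14% of all genes. In the combination all 18 muscle markers were higher than in control (median 3.04), 11 at that p, against 3.42% of all genes. Against anti-PD1 all 18 were higher in the combination (median 2.58), 7 at that p, against 1.85% of all genes. Against HMB 17 were higher in the combination (median 0.63), 0 at that p, against 4.71% of all genes. Of 12 epithelial markers 11 were higher with HMB than in control, 5 at an unadjusted p of 0.05, against 3.14% of all genes. With anti-PD1 against control 10 were higher, 3 at that p, against 2.41% of all genes. In the combination 5 were higher and 7 lower than in control, 0 at that p, against 8.13% of all genes. All 12 were lower than with HMB, 4 at that p, against 4.1% of all genes. The interaction was below 0 in 10, with 7 at that p, against 2.96% of all genes. The mean of the epithelial markers had r = 0.61 with the fibrillar mean. The part of these cell types in the collagen differences was not tested.

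**Figure D4:**
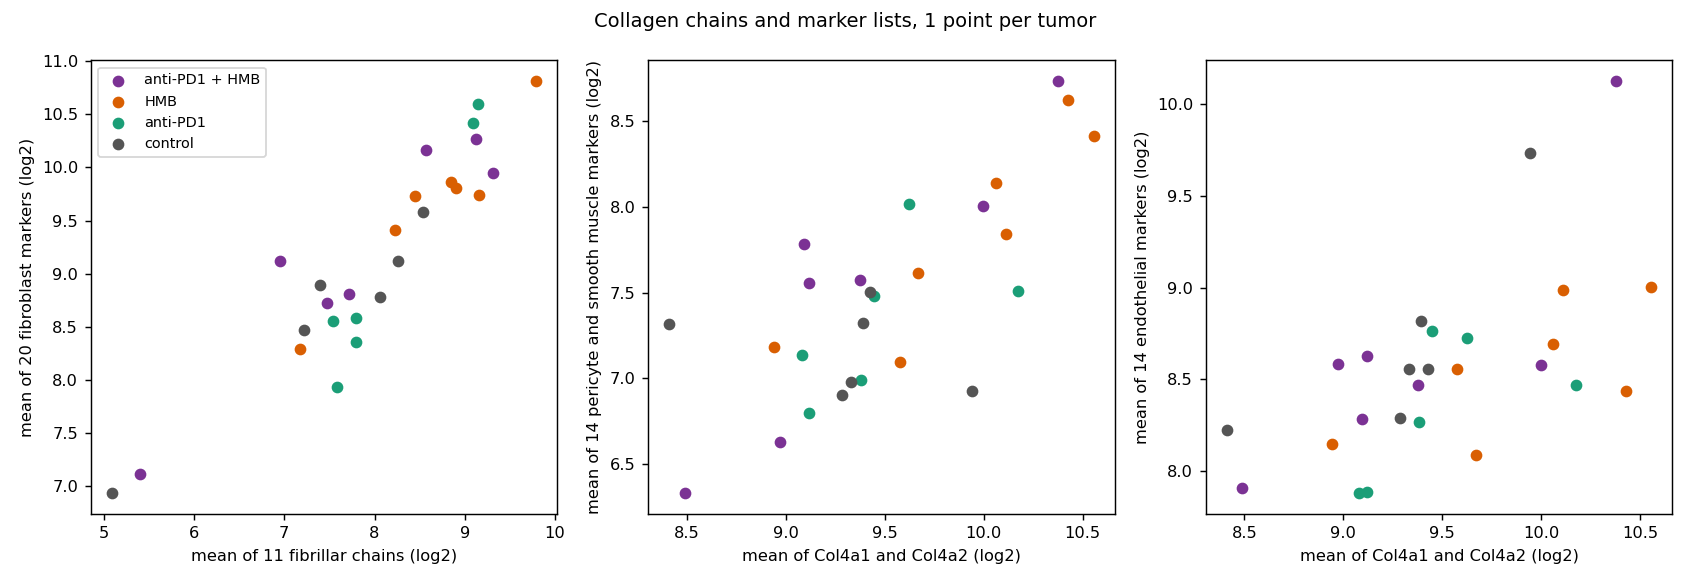
Mean of the 11 fibrillar chains (horizontal) and of 20 fibroblast markers (vertical) on the left, and mean of Col4a1 and Col4a2 (horizontal) with the means (vertical) of 14 pericyte and smooth muscle markers (middle) and 14 endothelial markers (right), in log2 units, with 1 point per tumor colored by treatment. The points at the lower left of the left panel are control tumor 4 and anti-PD1 + HMB tumor 3, with fibroblast marker means of 6.93 and 7.12.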

How the data were processed

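RNA of 26 whole subcutaneous Panc02 tumors was measured on Clariom S arrays, 1 array per tumor, whose number limits the precision. The authors deposited 1 processed log2 value per probe set and tumor, where base 2 is assumed. How they were summarized and normalized is not given in the sources used here. Values were used without further normalization. Of 28846 probe sets, 19572 had 1 symbol in the platform listing, all of them matched by gene ID to the RefSeq gene table, and 9274 without a symbol were left out. For 55 genes with several probe sets, none a collagen, the highest-mean one was kept. No gene was removed for low values.

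All 19505 genes were fitted in limma 3.58.1 (R 4.3.3) with 1 mean per group over the 26 tumors, for 5 differences and the interaction, with Benjamini-Hochberg adjustment at 0.05. The steps were tested on simulated data. Correlations between chains used 100000 two-sided permutations over tumors (scipy 1.17.1), adjusted within each family.

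The collagen classes, marker lists and companion lists were chosen with earlier results of these data known. Named in the text are 12 measured core chains, the 3 chains with the smallest p in each direction of a comparison, and the 2 companion genes per list with the smallest p in a comparison described. Col2a1, Col14a1, Col27a1 and a few others were named after their values were seen. Alternatives were quantile normalization, filters on dim genes, other variance models, array weights, probe set means, fits of only 2 groups, the replicate number as a block, the methods' t-test, and fits without single tumors. Promoter sequences and motif windows came from RefSeq on GRCm38.p6.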

Additional observations from a re-analysis of the deposited data

Results flagged for a closer look

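In the groups, 60 sets of values (the core chains and class means in each of the 4 groups) were examined for 1 tumor far from the rest, with Dixon's criterion at 95%. It picked 6 of them, and chance alone picks about 1 in 20 independent sets. These sets are not independent, because many core chains moved together and the class means contain core chains. The number picked therefore cannot be set against that share. Control tumor 4 was far below the other control tumors in Col1a1 (7.47, the others at 13.44 to 15.33), Col1a2 (6.53, the others at 13.47 to 15.49) and Col3a1 (9.48, the others at 14.08 to 15.98). HMB tumor 2 was far below the other HMB tumors in Col1a2, at 11.81 against 15.09 to 16.73. Anti-PD1 tumor 1 was far above the other anti-PD1 tumors in Col4a1, at 10.91 against 9.50 to 9.89. Control tumor 1 was far below the other control tumors in the mean of the basement membrane chains, at 5.61 against 5.99 to 6.16.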

How the results depend on the processing

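Counts here are of collagen chains at an unadjusted p of 0.05 in both directions together, and medians are of the log2 differences of all chains. No alternative other than leaving out 1 tumor called any gene at an adjusted p of 0.05. With only genes above the negative-control percentile, chains called numbered 2 for HMB against control, 1 for anti-PD1 + HMB against control, 0 against anti-PD1, 2 against HMB and 0 for the interaction, and the medians were 1.90 for HMB against control, 1.04 for anti-PD1 against control, 0.57 for anti-PD1 + HMB against control, −1.13 against HMB and −2.24 for the interaction. That filter leaves 7 chains. With the genes of lowest mean removed, those under the first quartile, the count for anti-PD1 + HMB against control was 1. With array weights it was 1 for anti-PD1 + HMB against anti-PD1, 1 against HMB and 2 for the interaction, and Col18a1 in HMB against control turned to −0.0041. With only 2 groups in the fit it was 11 for HMB against control, 1 for the combination against anti-PD1 and 3 against HMB, and with the methods' t-test 0 and 2 for the last pair of comparisons. The interaction has no fit of 2 groups and no such t-test. The causes were not tested.

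Whether the replicate number paired tumors was described and not tested. Over 37 pairs with the same number in different groups, deviations from group means correlated at −0.24 to 0.32, with a median of −0.01. Of these pairs 12 were over 0.1, and 6 of 26 tumors correlated best with their own number. With the number as a block the count was 8 for HMB against control, 0 for the combination against anti-PD1 and 7 against HMB.

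Without control tumor 4 and anti-PD1 + HMB tumor 3 together, a choice made after seeing the data, the count was 3 for HMB against control, 1 for the combination against anti-PD1 and 2 for the interaction. Col18a1 in HMB against control turned to −0.0569, and in anti-PD1 + HMB against anti-PD1 Col1a2 turned to 0.0259 and Col3a1 to 0.39.

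With 1 tumor left out, the count ranged over 2 to 14 for HMB against control, 0 to 1 for anti-PD1 against control, 1 to 5 for anti-PD1 + HMB against control, 0 to 4 against anti-PD1, 3 to 9 against HMB and 2 to 9 for the interaction. Genes called at an adjusted p of 0.05 numbered 0 to 4 for anti-PD1 + HMB against HMB (4 without anti-PD1 + HMB tumor 1) and 0 to 1 for the interaction (1 without HMB tumor 3). The log2 difference ranged over −0.0569 to 0.22 for Col18a1 in HMB against control, −0.60 to 1.46 for Col1a1, −0.62 to 1.61 for Col1a2 and −0.21 to 1.44 for Col3a1 in anti-PD1 + HMB against control, and −1.35 to 0.0259 for Col1a2 and −0.68 to 0.39 for Col3a1 in anti-PD1 + HMB against anti-PD1. The values that turned were −0.03 for Col18a1 without HMB tumor 4 and −0.02 without control tumor 1, and for Col3a1 against anti-PD1 0.07 without anti-PD1 tumor 1 and 0.001 without anti-PD1 tumor 4. Quantile normalization turned no described difference. The trended and robust variance and probe set means could not turn one. The former leaves the differences as fitted, and no collagen chain had several probe sets.

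Array number and dim probe sets limit the chains. The 35 chains with means below the negative-control percentile cannot be told from background by it, and a missed threshold there does not show that treatments acted alike.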
